A study of Homo sapiens with 8 samples.

Results

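The genes described here are the human TNF receptors, the TNF ligands and the TRAF adaptors that the receptors signal through. They are the protein-coding genes whose symbol starts with TNFRSF or TNFSF, together with TNF, LTA, LTB, CD40 and the genes named TRAF followed by a number. In all, 44 of 20037 protein-coding genes met this rule: 22 receptors, 15 ligands and 7 adaptors. Binding of HA-tagged RUNX1 near them was read from 6 lists of CUT&RUN peaks in HEL cells, a human erythroleukemia line that shows traits of erythroid cells and of megakaryocytes. In CUT&RUN, an antibody guides a nuclease to its target in permeabilized cells, and the released fragments are sequenced. The cells were transduced to carry HA-tagged wild-type RUNX1 (WT), HA-tagged RUNX1-4A, HA-tagged RUNX1-4D or an empty vector, and puromycin at 2 µg/ml selected the transduced cells in all 4 lines. By the usual naming of such forms, 4A replaces serines or threonines with alanine, which takes no phosphate, and 4D replaces them with aspartate, which resembles a phosphorylated residue. Each line had 2 biological replicates of 500000 cells. The empty vector line served as the background when peaks were called, and no list of its own was analysed here. Because the antibody binds the tag, the untagged RUNX1 of the cells is not read, and a peak list cannot show the markers of the cell line.

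TNF family ligands are mostly trimeric proteins of the cell surface that can be shed, and they act by clustering their receptors. Receptors with a death domain can pass the signal to caspases, while many others recruit TRAF adaptors, most of which are ubiquitin ligases, and lead to NF-kB. Decoy receptors bind ligand without passing on a full signal. RUNX1 is a DNA-binding factor required for blood stem cells and for megakaryocytes, and its binding site is built around the letters TGTGGT or TGCGGT.

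Promoter sequences are shown for 5 genes because they cover the range of cases in these data. TRAF4 had peaks over its promoter in all 6 lists, TNFRSF14 in 5 lists, and TRAF6 and TNFRSF11A in the 3 replicate 2 lists alone. TNFRSF9 is shown because its promoter holds RUNX letters at 2 places and lay under no peak. The sequences are RefSeq's on GRCh38.p14, 5′ to 3′ on the strand of the gene, with 250 bases before the start site and 50 from it on. Capitals mark TGTGGT or TGCGGT (RUNX) and CCGGAA (ETS) on either strand, so that a RUNX match on the reverse strand appears as ACCACA or ACCGCA and an ETS match as TTCCGG. None of these 5 sequences holds both motifs, so none of the matches overlap.

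TRAF4 (chr17:28743761-28744060, plus strand): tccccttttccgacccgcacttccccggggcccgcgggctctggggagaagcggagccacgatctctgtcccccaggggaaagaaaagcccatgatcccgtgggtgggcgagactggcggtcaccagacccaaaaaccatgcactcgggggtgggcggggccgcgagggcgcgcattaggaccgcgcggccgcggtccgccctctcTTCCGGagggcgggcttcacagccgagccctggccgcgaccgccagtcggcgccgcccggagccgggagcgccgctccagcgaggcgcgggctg
TNFRSF14 (chr1:2556121-2556420, plus strand): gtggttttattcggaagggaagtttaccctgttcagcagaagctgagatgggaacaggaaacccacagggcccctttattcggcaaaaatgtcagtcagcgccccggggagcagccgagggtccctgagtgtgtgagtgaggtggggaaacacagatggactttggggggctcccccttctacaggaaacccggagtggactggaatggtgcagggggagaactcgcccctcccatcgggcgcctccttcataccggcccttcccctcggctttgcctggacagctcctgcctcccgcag
TRAF6 (chr11:36510223-36510522, minus strand): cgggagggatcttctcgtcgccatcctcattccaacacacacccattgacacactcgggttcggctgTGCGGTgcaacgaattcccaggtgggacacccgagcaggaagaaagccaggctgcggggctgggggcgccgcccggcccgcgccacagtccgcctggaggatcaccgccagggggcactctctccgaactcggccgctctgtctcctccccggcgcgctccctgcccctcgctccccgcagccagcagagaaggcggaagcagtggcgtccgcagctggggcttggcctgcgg
TNFRSF11A (chr18:62325060-62325359, plus strand): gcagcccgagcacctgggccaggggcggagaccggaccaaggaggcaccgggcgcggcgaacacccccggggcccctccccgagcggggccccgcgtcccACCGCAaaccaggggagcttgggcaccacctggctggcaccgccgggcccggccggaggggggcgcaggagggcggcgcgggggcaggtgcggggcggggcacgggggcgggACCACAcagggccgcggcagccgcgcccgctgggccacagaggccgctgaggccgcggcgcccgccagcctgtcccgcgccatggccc
TNFRSF9 (chr1:7940790-7941089, minus strand): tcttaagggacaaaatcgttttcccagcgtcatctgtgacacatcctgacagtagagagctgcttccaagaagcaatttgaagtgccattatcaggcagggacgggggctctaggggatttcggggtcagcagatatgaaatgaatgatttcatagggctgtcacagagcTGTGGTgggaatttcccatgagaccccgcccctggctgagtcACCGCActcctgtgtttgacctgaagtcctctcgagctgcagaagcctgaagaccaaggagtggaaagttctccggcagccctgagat

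The TRAF4 promoter, the one under a peak in every list, held no RUNX letters and 1 ETS match, which began 44 bases before the start site (offset -44). TNFRSF14 held neither motif. TRAF6 had RUNX letters at offset -183, TNFRSF11A at -150 and -38, and TNFRSF9 at -80 and -38. A match is a description of letters and not of binding, and these windows hold only part of each peak. At TRAF4, TNFRSF14 and TRAF6 the strongest summit lay outside the printed window, and at TNFRSF11A inside it. The letters at the outside summits were thus not read.

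Across the family, 31 genes had at least 1 promoter in the RefSeq table, which gave 42 promoters, and 13 genes had none. RUNX letters were present in 10 of the 42 (23.8%), against 19.0% of all 22199 promoters in the table. Some of the 42 overlap and are not independent: both LTA windows hold the same RUNX letters, and both TNFSF14 windows the same ETS letters. A peak lay over 8 of the 42 promoters in at least 1 list and over 1 in all 6 lists. Of those 8, the promoters of TRAF6 and TNFRSF11A held RUNX letters (25%), compared with 22.6% of all promoters under a peak and 16.8% of those under none. Among all promoters under a peak in all 6 lists the share was 33.2%. For TGTGGT alone the shares of all promoters were 10.2% under a peak, 11.9% under none and 13.9% under a peak in all 6 lists. Of the family's promoters 19.0% held TGTGGT, against 11.3% of all promoters, and 12.5% of the 8 under a peak did. ETS letters were found in 9 of the 42 (21.4%, against 21.2% of all promoters), and in 3 of the 8 under a peak (37.5%, against 31.0%). The letters AGATAA, a site of GATA factors, were found in 6 of the 42 (14.3%, against 7.91%) and in none of the 8 under a peak, where 3.95% of all promoters held them.

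The lists differed far more in length between replicates than between lines. Replicate 1 lists held 5358 to 6764 peaks on chromosomes 1 to 22, X and Y, and replicate 2 lists 21122 to 25911. Read depth was unknown, because the lists give no totals of reads, so a gene without a peak went uncalled at the depth of that library and may still have been bound. A gene is called in a list when a peak lies within 10 kb of either of its ends. The table of genes used gives ends but no exons or strand, so exonic, intronic and untranslated positions cannot be told apart, and a start site is named only where the promoter table gives it. A region is a stretch where peaks of the lists overlap by at least 1 bp, and a line's set is the genes with a region called in both of its replicates. The fold enrichment and the −log10 q of a peak are the authors' values and are used to describe and rank peaks within a list. The percentile of a peak is its rank by −log10 q within its own list, with 100 at the top.

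More family genes were called in the long replicate 2 lists than in the replicate 1 lists. WT replicate 1 called 12 of 44 (27.3%, against 26.2% of all protein-coding genes) and WT replicate 2 called 27 (61.4%, against 54.9%). In 4A the numbers were 10 (22.7%, against 22.5%) and 26 (59.1%, against 54.8%). In 4D they were 10 (22.7%, against 20.1%) and 28 (63.6%, against 50.1%). The share called was thus near that of all genes in the 3 replicate 1 lists and above it in the 3 replicate 2 lists, most in 4D. But in 4D replicate 2 the genes TNFSF12, TNFSF13 and TNFSF12-TNFSF13 were called through 1 shared peak with a −log10 q of 3.73. No other list held that peak, so the higher count of 4D rests partly on counting it for each of these genes. The differences from all genes were not tested.

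WT lists called 19.5 ± 10.6 genes on average (SD, n = 2), 4A lists 18.0 ± 11.3 and 4D lists 19.0 ± 12.7. The spread within each line was larger than any difference between lines, and a two-sided exact permutation test over the 6 libraries gave p = 0.867, where the smallest possible p is 0.0667, so that this design cannot pass the usual threshold. Relative to list length, the lists held 1.92 to 2.18 peaks at family genes per 1000 peaks. In replicate 1 and then replicate 2, WT lists held 2.07 and 2.08, 4A lists 1.92 and 1.98 and 4D lists 2.05 and 2.18. The means were 2.08 (WT), 1.95 (4A) and 2.12 (4D), with n = 2 each. Both 4A libraries lay below all 4 others on this measure, and the same exact permutation test gave p = 0.2.

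**Figure D1:**
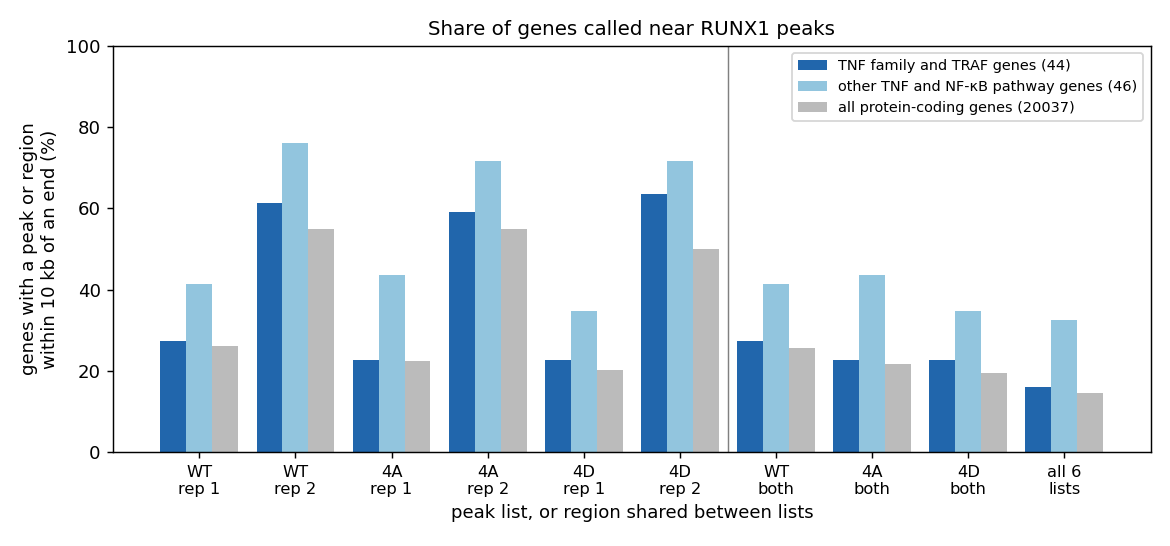
Percent of genes (vertical axis, from 0) with a peak in each of the 6 lists or with a region shared between lists (horizontal axis), for the 44 TNF family and TRAF genes, for 46 other genes of the pathway and for all 20037 protein-coding genes. The family bars run from 22.7% to 63.6% in single lists, track the grey bars of all genes closely in replicate 1, and lie below the bars of the other pathway genes in all lists and sets.

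Regions called in both replicates gave 12 family genes in the WT set (27.3%, against 25.6% of all genes), 10 in the 4A set (22.7%, against 21.8%) and 10 in the 4D set (22.7%, against 19.5%). A region called in all 6 lists lay near 7 of the 44 (15.9%, against 14.5%), and 32 had a peak in at least 1 list (72.7%, against 61.9%). The genes near a region of all 6 lists were the receptors TNFRSF18, TNFRSF4, TNFRSF10A and TNFRSF1A, the ligands TNF and LTB, and the adaptor TRAF4. They rest on 6 regions at 5 places, because TNFRSF18 shares its region with TNFRSF4, TNF shares its region with LTB, and TRAF4 has a pair. With every list shortened to its strongest peaks at the length of the shortest list, the same 7 genes were called in all 6 lists (15.9%, against 8.88% of all genes), and the WT set held 10 (22.7%, against 13.3%). Within 2 kb the family fell below all genes for all 6 lists (3 genes, 6.82% against 9.68%), for the WT set (6, 13.6% against 17.8%) and for the 4A set (4, 9.09% against 14.4%), but not for the 4D set (7, 15.9% against 12.9%). With each region given to its nearest gene end alone it was below for all 6 lists (3, 6.82% against 9.83%) and the 4A set (6, 13.6% against 15.5%), and above for the WT and 4D sets (9, 20.5% against 18.2%, and 7, 15.9% against 13.7%).

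No family gene was called in both replicates of a line and in neither replicate of another. This count was 0 in all 6 directions. Over all genes it held 0.105% for WT without 4A, 0.314% for WT without 4D, 0.105% for 4A without WT, 0.294% for 4A without 4D, 0.0299% for 4D without WT and 0.0649% for 4D without 4A. Genes that were in the set of one line and missing from that of another were few, and each had a peak in the longer replicate 2 list of the line that lacked it.

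LTA, TNFRSF10D and TNFRSF25 were in the WT set and not in the 4A set (6.82%, against 7.04% of all genes). The same 3 genes were in the 4D set and not in the 4A set (6.82%, against 3.93%). TNFRSF10B and TNFRSF14 were in the WT set and not in the 4D set (4.55%, against 8.18%). With TRAF1 they were the 3 genes in the 4A set and not in the 4D set (6.82%, against 6.16%), and TRAF1 alone was in the 4A set and not in the WT set (2.27%, against 3.24%). None was in the 4D set and not in the WT set, where 2.16% of all genes were. Some of these calls rest on weak peaks. With peaks under a −log10 q of 5 left out, TNFRSF14 was no longer in the WT set, TRAF1 no longer in the 4A set and TNFRSF10D no longer in the 4D set. With all lists at the shortest length, the WT set lost TNFRSF14 and TNFRSF10D, and the 4A set lost TRAF1. Single genes were not tested between lines.

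**Figure D2:**
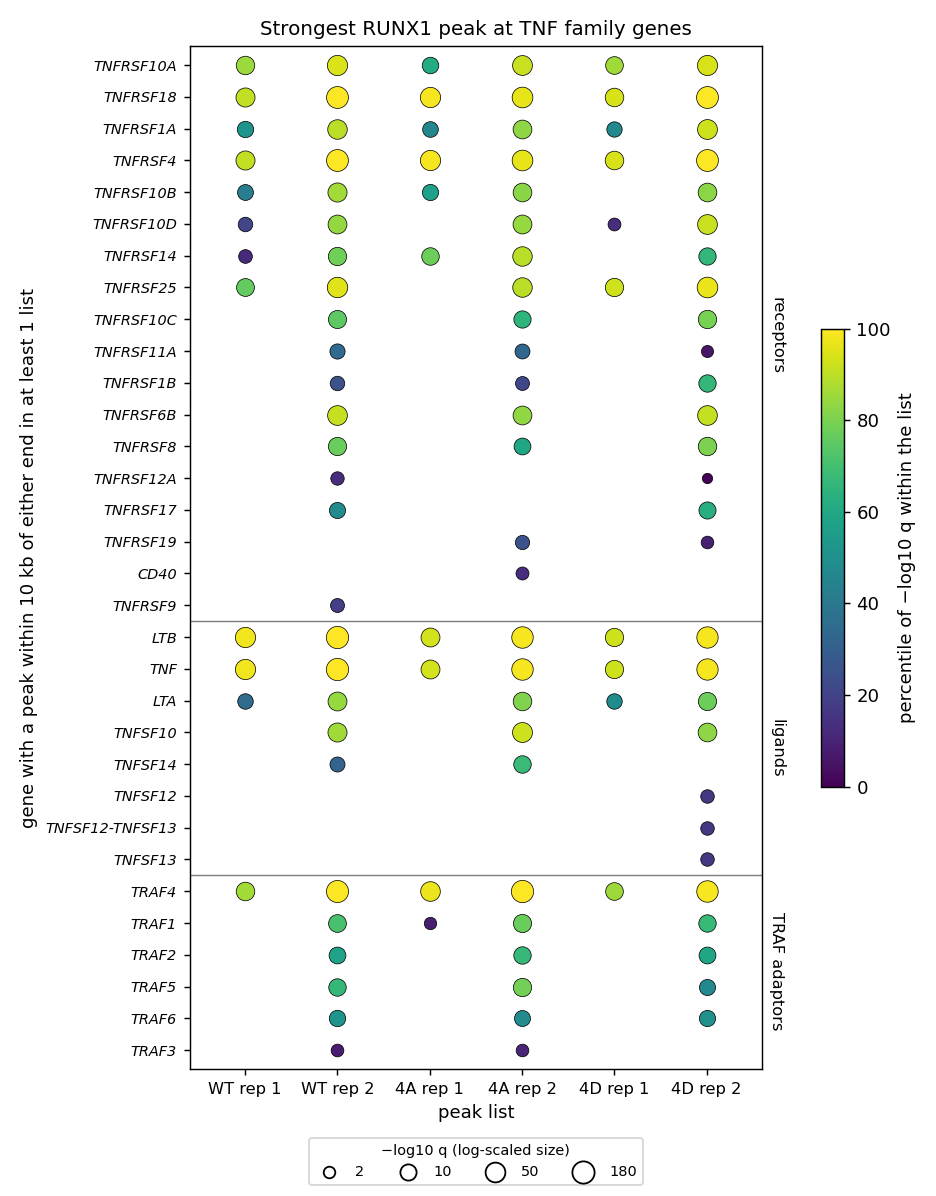
Strongest peak within 10 kb of each of the 32 family genes called in at least 1 list (rows, grouped into receptors, ligands and adaptors) in each of the 6 lists (columns). Circle area grows with the −log10 q on a log scale and colour gives its percentile within the list, and an empty cell is a gene not called there. Filled rows across all 6 lists are those of 7 genes, while many rows are filled in the replicate 2 columns alone.

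Of the 22 receptors, 8 were in the WT set, 6 in the 4A set and 6 in the 4D set, where 25.6%, 21.8% and 19.5% of all genes were. A region of all 6 lists lay near 4 receptors, against 14.5% of all genes, and 4 were called in no list, against 38.1%. The strongest receptor peaks lay at TNFRSF18 and TNFRSF4, neighbouring genes for GITR and OX40, which are costimulatory receptors of T cells. The shared region, chr1:1211978-1213942 on hg38, had its summit inside TNFRSF4, 1.1 kb from its end. Given as replicate 1 and then replicate 2, here and below, its −log10 q was 35.6 and 146 (WT), 62.6 and 79.0 (4A) and 28.1 and 147 (4D), with a fold enrichment of 12.7 to 28.0. It stood at the 91.0 percentile of its list or above in all 6 lists. The highest −log10 q was that of 4A among the replicate 1 lists and that of 4D among the replicate 2 lists. In replicate 2, WT was close to 4D by −log10 q and above it by fold enrichment (28.0 against 26.6). Since replicate 1 lists are short and replicate 2 lists long in every line, the ranges of the lines overlap at each region called in all 6 lists, so the order of the lines is given within each replicate number. Differences at single regions were not tested, and list depth cannot be told apart from binding.

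A further region on the other side of TNFRSF18, 2.34 kb outside it, was called in the replicate 2 lists alone, with a −log10 q of 28.6 in WT, 19.7 in 4A and 26.7 in 4D. Between the genes and in TNFRSF18 itself, WT replicate 2 listed 3 small peaks with a −log10 q of 3.68 to 5.23 that no other list held.

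Of the 5 death-domain receptors, 4 were called in each replicate 2 list, where 50.1% to 54.9% of all genes were. The exception, TNFRSF21, had a peak in 5 lists when the whole gene body was counted. TNFRSF1A, the main receptor for soluble TNF, had a region of all 6 lists inside the gene at chr12:6335617-6338020, 5.22 kb from its nearer end. Its −log10 q was 10.8 and 43.9 (WT), 8.1 and 30.9 (4A) and 7.1 and 50.9 (4D). In the replicate 1 lists this was a middling peak, at the 46.4 to 51.8 percentile, and in replicate 2 it stood at 83.2 to 92.2. By −log10 q the order was WT, 4A, 4D in replicate 1 and 4D, WT, 4A in replicate 2, from high to low. By percentile and by fold enrichment, 4A was the lowest in both replicates. WT replicate 1 split the stretch into 3 peaks and the other replicate 1 lists into 2. Nearer to the start site, 0.556 kb inside the gene, a region of the replicate 2 lists had a −log10 q of 37.8 in WT, 14.5 in 4A and 32.0 in 4D.

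The 4 TRAIL receptors, TNFRSF10A to TNFRSF10D, were all called in each replicate 2 list, where 50.1% to 54.9% of all genes were. These 4 genes lie close together on chromosome 8. TNFRSF10A, a receptor that triggers apoptosis, had a region just outside the gene, 0.151 kb from its end. WT had a −log10 q of 27.2 and 61.4 there, 4A 11.4 and 50.7, and 4D 18.8 and 59.4, and its percentile ranged from 61.2 in 4A replicate 1 to 94.3 in WT replicate 2. It was thus called in every list, with the lowest value in 4A in both replicates.

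TNFRSF10B, the other apoptosis-inducing TRAIL receptor, had a region 3.89 kb outside the gene where the −log10 q reached 6.71 and 36.2 in WT, and 10.1 and 29.9 in 4A. In 4D replicate 1 it was not called, and in 4D replicate 2 its −log10 q was 29.3. A second region 5.54 kb outside was called in both WT libraries (8.79 and 19.4) and in the other lines in replicate 2 alone (16.6 in 4A and 16.8 in 4D). With all lists at the shortest length, TNFRSF10B was still called in 5 lists and stayed in the WT and 4A sets.

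Of the 4 decoy receptors, 3 were called in each replicate 2 list, where 50.1% to 54.9% of all genes were. In replicate 1, 1 was called in WT (against 26.2% of all genes), 1 in 4D (against 20.1%) and none in 4A (against 22.5%). TNFRSF10D, a TRAIL receptor without a working death domain, entered the WT set through a region 5.78 kb outside the gene (5.32 and 13.7) and the 4D set through another one 0.551 kb inside it (2.97 and 22.0), all as −log10 q. All 3 replicate 2 lists held both regions: the outer one had 28.1 in 4A and 30.4 in 4D, and the inner one 20.9 in WT and 18.8 in 4A. The sets differ at this gene through the replicate 1 lists alone. TNFRSF10C, a lipid-anchored decoy, was called in the replicate 2 lists alone, where a region 0.75 kb inside the gene had a −log10 q of 22.7 in WT, 15.5 in 4A and 18.6 in 4D. TNFRSF6B, a soluble decoy for FAS ligand, had replicate 2 peaks with a −log10 q of 31.2 to 48.6, but these lay 9.45 and 9.95 kb from it, and the nearest gene ends were those of ARFRP1 and RTEL1.

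TNFRSF25, a death-domain receptor for TNFSF15, and TNFRSF14, a receptor for TNFSF14, were each called in 5 lists. TNFRSF25 had a region 0.964 kb outside the gene but 6.35 kb from its start site, chr1:6459562-6460359. In this region WT had a −log10 q of 20.0 and 68.7 and 4D one of 25.3 and 77.1. In 4A the region was missing from replicate 1 and had a −log10 q of 43.5 in replicate 2. TNFRSF14 had the opposite gap. Its region, chr1:2555738-2557335, covers the promoter printed above and peaked 0.464 kb from that start site, where WT had a −log10 q of 3.94 and 25.3 and 4A one of 17.4 and 42.6. In 4D it was missing from replicate 1 and had a −log10 q of 15.9 in replicate 2.

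The remaining called receptors had peaks within 10 kb of an end in replicate 2 lists alone. TNFRSF8 (CD30), a lymphoma marker, had a region 6.74 kb inside the gene with a −log10 q of 24.3 in WT, 12.9 in 4A and 26.8 in 4D. Counting the whole gene body, TNFRSF8 was called in all 6 lists and entered the sets of all 3 lines. TNFRSF1B, the second TNF receptor, had peaks with a −log10 q of 5.23, 4.28 and 16.3 in the same order, 1.17 kb inside the gene. TNFRSF11A (RANK), which drives osteoclast formation, had a −log10 q of 6.74, 6.1 and 2.35 at its start site, over the promoter with RUNX letters at 2 places.

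TNFRSF17, a survival receptor of plasma cells, was called in replicate 2 of WT and 4D with a −log10 q of 9.75 and 14.6, although the summit lay 0.029 kb from the end of another gene, NPIPB2. TNFRSF19 was called in replicate 2 of 4A (4.84) and 4D (2.75), and TNFRSF12A, the receptor for TWEAK, had separate single peaks in replicate 2 of WT (3.57) and 4D (1.43). CD40, the B cell and antigen-presenting cell receptor, had 1 peak in 4A replicate 2 (3.07), and TNFRSF9 (4-1BB) had 1 in WT replicate 2 (4.33) at 1.79 kb from its start site. Apart from TNFRSF17, the −log10 q of these genes thus ran from 1.43 to 4.84. TNFRSF21, TNFRSF11B (osteoprotegerin), TNFRSF13B and TNFRSF13C (the receptors TACI and BAFF-R of B cells) had none within 10 kb of an end.

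**Figure D3:**
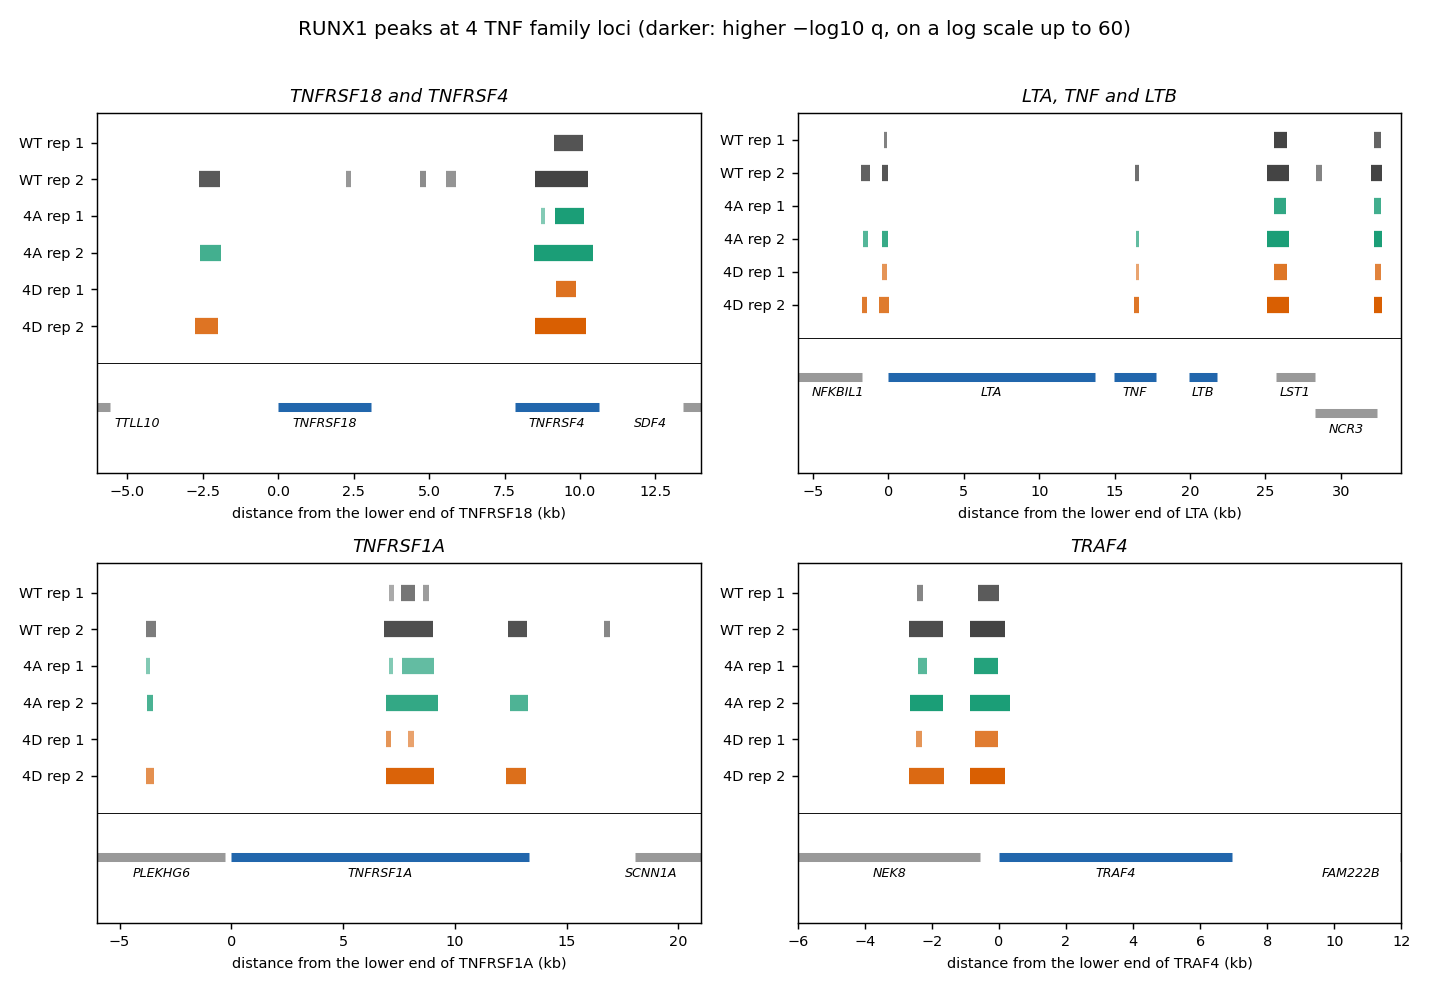
Peaks of the 6 lists (coloured bars, WT grey, 4A green, 4D orange, darker for a higher −log10 q) above the protein-coding genes (family genes blue, others grey) at 4 places, with the distance in kb from the lower end of the first family gene on the horizontal axis. The bar inside TNFRSF4, the bar beyond LTB at LST1, the bar within TNFRSF1A and the pair beside TRAF4 run through all 6 lists, whereas the bars at LTA are missing from 4A replicate 1 and those before TNFRSF18 from every replicate 1 list. A bar at the end of NCR3 also runs through all 6 lists, but it lies beyond 10 kb of any family gene and is not counted.

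Of the 15 ligands, 3 were in the WT set, 2 in the 4A set and 3 in the 4D set, against 25.6%, 21.8% and 19.5% of all genes. In no list were 7 of the ligands called, against 38.1% of all genes. LTA, TNF and LTB lie side by side and encode lymphotoxin alpha, TNF and lymphotoxin beta. Their strongest region, chr6:31585678-31587198, had a −log10 q of 62.1 and 182 (WT), 33.1 and 120 (4A) and 24.9 and 110 (4D). Its percentile was 92.2 or above in every list, and its fold enrichment ran from 14.9 to 35.4. The summit lay 4.1 kb outside LTB but 0.249 kb from the end of LST1, a leukocyte gene that is no member of the family, so this call of TNF and LTB rests on the 10 kb distance and not on the nearest gene. The order was WT, 4A, 4D in both replicates, from high to low, by −log10 q and by percentile. In replicate 2 the percentiles of 4A and 4D were close (98.7 and 98.6), and 4D had the higher fold enrichment (18.4 against 16.6). In WT the summits of this region and of the one in TNFRSF1A were apart: with each peak reduced to 100 bp on either side of its summit, TNF, LTB and TNFRSF1A were no longer in the WT set, and 4 family genes were called in all 6 lists in place of 7.

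Closer to the end of LTA, but with its summit 11.7 kb from the nearest listed LTA start site, a region was called in 5 lists. It was chr6:31559972-31560621, 0.203 kb outside the gene. WT had a −log10 q of 7.62 and 32.8 there and 4D one of 7.41 and 20.2, while in 4A it was missing from replicate 1 and had a value of 28.2 in replicate 2. A small region inside TNF itself, chr6:31576917-31577245, had a −log10 q of 13.9 in WT replicate 2, 8.56 in 4A replicate 2, and 3.83 and 24.2 in 4D. Only 4D called it in both replicates, and it was present in the replicate 2 lists of the other lines.

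TNFSF10 encodes TRAIL, the ligand of the TNFRSF10 receptors. It had a region 7.06 kb inside the gene, chr3:172512210-172512827, with a −log10 q of 35.4 in WT, 53.4 in 4A and 30 in 4D, all in replicate 2. TNFSF14 (LIGHT), the ligand of TNFRSF14, was called in replicate 2 of WT and 4A, with a −log10 q of 6.34 and 17.1, at a summit 4.45 kb away, nearer to the complement gene C3. TNFSF12, TNFSF13 and their readthrough gene TNFSF12-TNFSF13 shared 1 peak in 4D replicate 2, whose −log10 q was 3.73. TNFSF4, TNFSF8, TNFSF9, TNFSF11 (RANKL), TNFSF13B (BAFF), TNFSF15 and TNFSF18, the ligands of OX40, CD30, 4-1BB, RANK, BAFF-R, TNFRSF25 and GITR, were not called. The receptors TNFRSF4 and TNFRSF18 thus had peaks in all 6 lists and their ligands TNFSF4 and TNFSF18 none, but this rests on the distance: TNFSF4 was called in 3 lists over the gene body and in 4 within 50 kb, and TNFSF18 in 4 within 50 kb.

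Of the 7 adaptors, TRAF4 was called in all 6 lists, TRAF1 in 4 and TRAF7 in none. TRAF4 is an adaptor with roles in cell migration and development. Its region chr17:28743139-28744335 had a −log10 q of 28.1 and 162 (WT), 46.6 and 182 (4A) and 18.7 and 119 (4D), with a fold enrichment of 12.3 to 34.3. It stood at the 85.5 percentile or above in every list. The summit was 0.506 kb before the TRAF4 start site and 0.05 kb from the end of NEK8, a kinase gene next to it. A second region 2.32 kb before TRAF4, chr17:28741316-28742365, was also called in all 6 lists, with a −log10 q of 6.56 and 45.0 (WT), 11.3 and 60.3 (4A) and 7.14 and 40.1 (4D). In both regions 4A had the highest −log10 q in both replicates. By fold enrichment, WT was higher than 4A in replicate 2 of the region nearer to TRAF4 (34.3 against 28.6).

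TRAF1, an adaptor induced by NF-kB, was called in both 4A replicates at chr9:120925649-120926574, with a −log10 q of 2.57 and 22.8. In WT replicate 2 the value was 16.7 and in 4D replicate 2 it was 3.24, and neither of their replicate 1 lists held it. The 4A call of TRAF1 thus rests on the peak of 2.57 in replicate 1. A second TRAF1 region over a start site had a −log10 q of 19.4 in WT, 23.5 in 4A and 16.7 in 4D, all in replicate 2.

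TRAF2 and TRAF6, which carry receptor signals to NF-kB, were called in the 3 replicate 2 lists near a start site. TRAF2 had a −log10 q of 12.9 in WT, 16.7 in 4A and 13.1 in 4D. TRAF6 had 10.9, 9.25 and 10.2 in a region that covers the last part of the promoter printed above and not its RUNX letters. TRAF5 was called 7.86 kb outside the gene, also in replicate 2 alone, with a −log10 q of 16.9, 25.5 and 9.55. TRAF3, which restrains the non-canonical NF-kB pathway, had only separate single peaks in replicate 2 of WT (2.82) and 4A (2.78). With TRAF7, 12 of the 44 family genes were called in no list, against 38.1% of all genes. Within 50 kb, TNFSF11 and TRAF7 were called in all 6 lists, and TNFRSF11B, TNFRSF13B, TNFSF8, TNFSF13B and TNFSF15 still had no peak.

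The family had 68 regions in all, out of 33478. The strongest summit lay inside the nearest family gene in 26 and outside it in 42, and the nearest gene end was that of a family gene in 54 and that of another gene in 14. Of the 6 regions called in all 6 lists, 3 were nearest to a family gene: those of TNFRSF4, TNFRSF10A and TNFRSF1A. Of the 68, 8 counted for at least 2 family genes at once, so the genes are not independent of each other. A summit 1 kb or less from the end of a protein-coding gene was found in 26 family regions (38.2%), against 51.5% of the 16807 regions within 10 kb of any such end. Regions of all 6 lists made up 8.82% of the family's and 12.3% of those near any gene.

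Replicate 2 lists alone held 52 of the 68 family regions (76.5%, against 69.4% near any gene). Of the 68, 20 were in all 3 replicate 2 lists and no replicate 1 list, as were 4081 of the 16807 regions near any gene. No family region was in a replicate 1 list and missing from the replicate 2 list of the same line. Such regions were uncommon over all regions too: 194 in WT, 446 in 4A and 253 in 4D, beside 6382, 5681 and 4962 called in both replicates. The family had 12, 10 and 10 regions called in both, too few for a count of 0 to set it apart. Regions in 1 list numbered 24 (35.3%, against 30% near any gene and 34.5% of all regions). Their −log10 q ran from 1.43 to 7.14 with a median of 3.32, and none passed the 36.1 percentile of its list. The median percentile of all family peaks in a list was 38.4 and 60.1 (WT), 58.6 and 66.7 (4A) and 48.2 and 67.3 (4D), where a list as a whole has its median at the middle by definition.

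**Figure D4:**
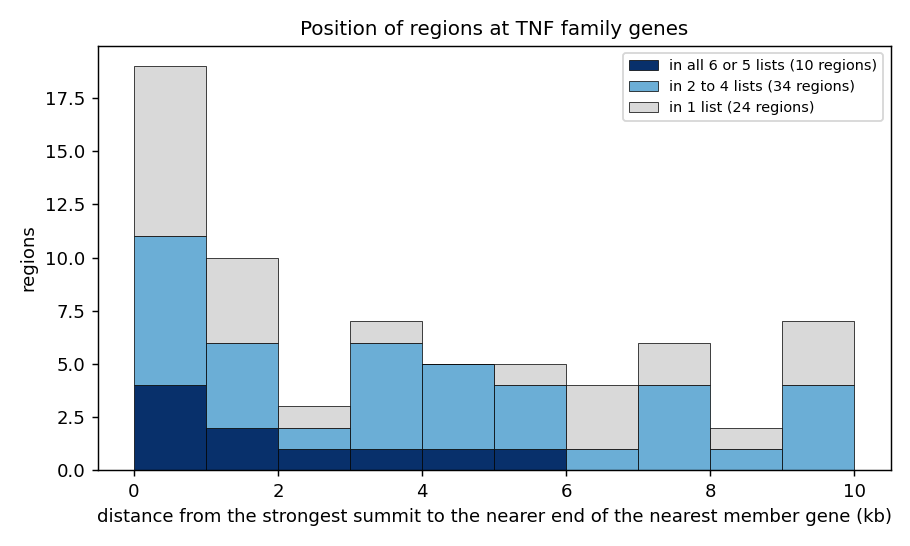
Number of the 68 regions (vertical axis) by the distance in kb from the strongest summit to the nearer end of the nearest family gene (horizontal axis), split by how many of the 6 lists called them, with 1 summit at 10.16 kb drawn in the last bar. The first bar is the tallest, and the 10 regions of 5 or 6 lists all lie within 6 kb, whereas the 24 regions of 1 list spread over the whole range.

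Other genes of the same pathway were taken as a list of 46 that act around the family: relatives under other symbols, signalling adaptors and caspases, ubiquitin enzymes and NF-kB subunits with their inhibitors. Of these, 19 were in the WT set (41.3%, against 25.6% of all genes), 20 in the 4A set (43.5%, against 21.8%) and 16 in the 4D set (34.8%, against 19.5%). A region of all 6 lists lay near 15 (32.6%, against 15.9% of the family and 14.5% of all genes), and 36 had a peak in at least 1 list (78.3%, against 61.9%). The difference between the lists of genes was not tested.

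Of the 8 ubiquitin enzymes, 5 had a region of all 6 lists, against 14.5% of all genes: CYLD, a deubiquitinase that dampens NF-kB, OTULIN, which trims linear chains, and RBCK1, RNF31 and SHARPIN, the subunits of the linear ubiquitin ligase. RBCK1 had a −log10 q of 32.7 and 128 (WT), 42.3 and 128 (4A) and 22.2 and 121 (4D). Of the 15 adaptors and caspases, 5 had a region of all 6 lists, against 14.5% of all genes: BIRC2 and BIRC3, the ubiquitin ligases bound to TRAF2, MAP3K14, the kinase of the non-canonical pathway, and CASP10 and CFLAR, a caspase and a caspase inhibitor. CASP10 and CFLAR had the same strongest −log10 q in 4A (32.7 and 47.6) and in 4D (14.5 and 89.8), so they are not independent of each other. RIPK1, a kinase of the receptor complex, had a peak in each list but no region common to all 6. MAP3K14 had a −log10 q of 65.7 and 101 (WT), 41.4 and 136 (4A) and 32.1 and 85.2 (4D).

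All 12 NF-kB genes were called in WT replicate 2 and in 4A replicate 2, and 11 in 4D replicate 2, where 54.9%, 54.8% and 50.1% of all genes were. But 3 had a region of all 6 lists, against 14.5% of all genes: RELA, BCL3 and NFKBIB. RELA, the main activating subunit, had a −log10 q of 19.6 and 105 (WT), 31.0 and 96.8 (4A) and 17.5 and 51.2 (4D). Among the 11 family relatives under other symbols, NGFR and RELT had a region of all 6 lists, against 14.5% of all genes. FAS, CD40LG, CD70, EDA and EDA2R were called in no list, against 38.1% of all genes. RELT had a −log10 q of 19.0 and 103 (WT), 18.8 and 102 (4A) and 8.0 and 74.3 (4D).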

How the data were processed

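CUT&RUN with an anti-HA antibody was done on 8 libraries of HEL cells, and the peak lists of the 6 WT, 4A and 4D libraries were analysed. Per the submitters' processing notes, the build was hg38 and the tools were MACS2 2.2.7.1, deepTools 3.5.1, Picard 2.25.6, Bowtie2 2.4.2 and cutadapt 3.4. Read filters and any pooling of the background are not given in the sources used here. For each peak the deposited lists give a summit, a score, a fold enrichment (a linear ratio) and p- and q-values as −log10. The lowest deposited −log10 q was between 1.3 and 1.41 in each list. Depth was unknown, so no counting intervals were given.

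Peaks were joined into regions and assigned to genes of a RefSeq table (GRCh38.p14) with Python 3.11.15 and pandas 2.3.3. Steps were tested on simulated data. Line means were compared by an exact permutation test over libraries, two-sided. The members and gene lists were chosen with earlier results of these data known. Named were the genes with a region in all 6 lists, then those called in most lists, and genes with no peak as a group. Promoters on chromosome 8 were not analysed here. Peak sequences were not used. Alternatives were other distances, the whole gene body, the nearest gene alone, stricter or shortened lists, summit windows, a wider merge, looser rules for a shared call, further TRAF symbols and left-out replicates.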

Additional observations from a re-analysis of the deposited data

How the results depend on the processing

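The counts moved with the distance rule and with the replicates used. Within 2 kb the WT set held 6 genes, the 4A set 4, the 4D set 7 and all 6 lists 3 (TNFRSF4, TNFRSF10A and TRAF4), against 17.8%, 14.4%, 12.9% and 9.68% of all genes. Within 50 kb these were 26 in WT, 22 in 4A, 21 in 4D and 15 in all 6 lists, against 46.1%, 41.8%, 38.3% and 29.8% of all genes. With each region given to its nearest gene alone, the 4A set held 6 (13.6%, against 15.5%) and all 6 lists 3 (TNFRSF4, TNFRSF10A and TNFRSF1A, 6.82% against 9.83%). With summit windows all 6 lists shared 4 (TNFRSF18, TNFRSF4, TNFRSF10A and TRAF4, 9.09% against 13%). Over the whole gene body with 10 kb on either side, the sets held 14 (WT, 31.8%), 12 (4A, 27.3%) and 12 (4D, 27.3%). Of all genes they held 29.1%, 25.5% and 22.8%. All 6 lists then shared 8 (18.2%, against 17.0%), TNFRSF8 being added. Leaving out a replicate number gave 12 to 27 genes in WT, 10 to 26 in 4A, 10 to 28 in 4D and 7 to 22 in all lists left, the higher number each time without replicate 1, which was the largest move of all the alternatives run. Of all genes, 54.9%, 54.8%, 50.1% and 43.7% were called without replicate 1, in the same order. Without replicate 2 these shares were 26.2%, 22.5%, 20.1% and 14.6%. For the number of genes called per list, WT minus 4D was 0.5 on average, and it turned to -2.0 (exact permutation p = 0.867) with equal lengths within a replicate number and to -1.0 (exact permutation p = 1.0) with all lists at the shortest length.

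Replicate numbers are shared by the lines, but the labels name no shared batch. With the replicate number as a block, the exact permutation p was 0.667 for genes called, where 0.167 is the smallest possible p. No call could be made or changed under the block, for peaks per 1000 either. Depth limits any statement on genes not called.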
